A study of Mus musculus with 8 samples.

Results

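Of the 22753 genes in the deposited table, 44 are described here. They are the cyclins and cyclin-dependent kinases (CDKs) that drive the cell cycle, the CDK inhibitors, the E2F transcription factors with the pocket proteins that bind them, the loaders of the replicative helicase, the enzymes that serve the replication fork, and a set of genes of G2 and mitosis. They were chosen by gene symbol from this list, all 44 were found, and each stands in the table with 1 copy. The macrophages were grown from the bone marrow of male C57BL/6 mice, 8 weeks old, and plated in serum-free macrophage medium. They were given lipopolysaccharide (LPS, the bacterial cell wall component sensed by Toll-like receptor 4) at 100 ng/ml. The groups are untreated cells (0 min) and cells after 20, 60 and 180 min of LPS, with 2 biological replicates each and 8 libraries in all. The labels name no other agent or allele for these groups. Whether the replicates came from separate animals or cultures is not given in the sources used here, so the tests measure the spread between these libraries.

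Entry into the cell cycle is set by D-type cyclins with CDK4 or CDK6 and then by cyclin E with CDK2. These kinases phosphorylate the pocket proteins and so release E2F factors onto the genes of DNA replication. The genes of G2 and mitosis are activated later in the cycle. Many carry in their promoters a CCAAT box and also a CHR element, and it is through the CHR that pocket protein complexes hold them down in resting cells. Bone marrow-derived macrophages proliferate in response to the growth factor CSF1, and LPS is known to arrest that proliferation.

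The assay was GRO-seq, in which isolated nuclei extend the transcripts already begun with a bromouridine label and the labelled RNA is sequenced. A value therefore reports polymerases at work on a gene and not the amount of its mRNA. Values are FPKM, reads per kilobase of gene scaled to the size of the library, and can be compared between genes per length. The spacing of the low values gave back the depth behind them, 44.4 to 61.2 M (mega) reads in the libraries of replicate 1 and 7.96 to 11.1 M reads in those of replicate 2, less than the labels state for a library. All 10 macrophage markers had signal, with a summed level between 88.9 and 114.0 FPKM at 0 min, 160.0 and 235.0 at 20 min, 131.0 and 152.0 at 60 min and 76.8 and 103.0 at 180 min. At 180 min Cd14 was called higher and Cd68, Mrc1 and Csf1r lower. All 12 erythroid, mast and stromal markers and all 6 dendritic cell markers stayed under 0.5 FPKM in every library, as did 9 of 12 T, NK and B cell markers and 5 of 9 granulocyte markers. The summed granulocyte markers, led by S100a8 and S100a9, were between 2.46 and 6.78 FPKM at 0 min and between 5.15 and 8.09 at 180 min. The summed T, NK and B cell markers were between 1.74 and 2.26 FPKM at 0 min and between 1.46 and 1.67 at 180 min. The part of other cell types in the changes below was not tested. Csf1r, the receptor for CSF1, was at 14.0 and 9.54 FPKM at 0 min and higher, at 30.8 and 22.1, at 20 min. It was near its 0 min level at 60 min, with 15.6 and 9.0 FPKM. At 180 min Csf1r was at 3.28 and 1.13 FPKM (log2 change from 0 min -2.52 ± 0.56 SE, limma adjusted p = 0.0156). In such bulk libraries, fewer cells of a type and less RNA per cell cannot be told apart.

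RefSeq promoter sequence (build GRCm38.p6, 250 bases before to 50 bases after each start) was at hand for 36 of the 44 genes. The 8 stretches below are shown because they carry letters that E2F is known to read, or CHR letters that the mitotic repressor complexes are known to read. Those of Mcm5, Mcm6 and Cdc6 belong to helicase loading genes, and that of Rbl1 to a pocket protein gene with another time course. The stretches of Ccnb2, Cdk1, Top2a and Mki67 belong to genes of G2 and mitosis, of which Mki67 ended above its 0 min level and the others below it. Capitals mark the E2F letters (TTTCGCGC, TTTGGCGC, TTTCCCGC or TTTGCCGC), the CHR letters (TTTGAA or TTCGAA) and CCAAT. Each was read on either strand, so a match on the other strand appears as its reverse complement. In the first block of capitals of Mcm5 and of Mcm6, an E2F match on each strand overlaps the other. Only bases before the start are printed. A further TTTGAA of Ccnb2, from base 5 after the start, and a further CCAAT of Mcm5, from base 7, are therefore not shown.
Mcm5 (chr8:75109344-75109503, plus strand): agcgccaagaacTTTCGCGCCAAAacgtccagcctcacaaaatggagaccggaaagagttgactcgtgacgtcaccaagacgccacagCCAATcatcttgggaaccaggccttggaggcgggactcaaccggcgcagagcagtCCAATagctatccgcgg
Mcm6 (chr1:128359706-128359827, minus strand): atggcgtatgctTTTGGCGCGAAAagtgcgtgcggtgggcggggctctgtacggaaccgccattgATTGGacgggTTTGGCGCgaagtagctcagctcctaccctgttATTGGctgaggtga
Cdc6 (chr11:98908001-98908032, plus strand): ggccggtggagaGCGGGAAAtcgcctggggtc
Rbl1 (chr2:157204535-157204564, minus strand): caagaaggcgatTTTCGCGCgctttgtcgc
Ccnb2 (chr9:70421559-70421733, minus strand): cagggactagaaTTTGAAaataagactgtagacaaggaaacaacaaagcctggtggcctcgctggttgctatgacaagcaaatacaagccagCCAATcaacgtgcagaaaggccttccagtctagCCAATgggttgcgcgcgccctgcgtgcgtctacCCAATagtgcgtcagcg
Cdk1 (chr10:69352913-69353132, minus strand): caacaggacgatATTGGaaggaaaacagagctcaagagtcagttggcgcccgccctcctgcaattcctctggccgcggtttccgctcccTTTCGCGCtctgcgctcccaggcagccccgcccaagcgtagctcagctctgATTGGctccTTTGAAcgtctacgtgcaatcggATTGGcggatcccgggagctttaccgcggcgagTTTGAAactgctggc
Top2a (chr11:99024195-99024428, minus strand): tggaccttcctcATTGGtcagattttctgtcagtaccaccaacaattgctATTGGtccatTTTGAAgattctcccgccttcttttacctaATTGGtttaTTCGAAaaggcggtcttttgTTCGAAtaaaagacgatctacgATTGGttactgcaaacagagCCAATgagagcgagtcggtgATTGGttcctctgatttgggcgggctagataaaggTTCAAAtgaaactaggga
Mki67 (chr7:135716460-135716579, minus strand): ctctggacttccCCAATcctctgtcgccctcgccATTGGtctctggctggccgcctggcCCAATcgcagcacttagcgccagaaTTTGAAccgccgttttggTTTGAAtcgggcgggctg

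E2F letters stood in 12 of the 36 promoters (33.3%), against 2.6% of the 27025 genes with a RefSeq window and 4.76% of the 6386 tested genes with one. They lay in 6 of 7 origin licensing genes and 4 of 6 E2F and pocket protein genes, in 1 of 5 cyclin and CDK genes of G1 and S phase and in 1 of 10 genes of G2 and mitosis. They were in 0 of 5 genes of the replication fork and nucleotide supply and 0 of 3 CDK inhibitor genes. The CHR letters were in 9 of 10 genes of G2 and mitosis, 3 of 6 E2F and pocket protein genes, 2 of 7 origin licensing genes and 0 of the other genes, 14 of the 36 overall (38.9%, against 21.7% of all genes and 15.6% of tested genes). CCAAT was in all 10 of those G2 and mitosis promoters and in 26 of the 36 (72.2%, against 41.1% of all genes and 42.0% of tested genes). Of the 36 genes, 31 were lower and 5 higher at 180 min in both replicates. CCAAT was in 25 of the 31 (80.6%) and 1 of the 5 (20.0%), that 1 being Mki67. The E2F letters were in 11 of the 31 (35.5%) and 1 of the 5 (20.0%), and the CHR letters in 13 (41.9%) and 1 (20.0%). These differences were not tested. These matches describe letters and say nothing of which protein was bound.

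After 180 min of LPS, most of the 44 genes were transcribed at a small part of their untreated level. The level was lower in both replicates for 38 genes and higher in both for 6, Ccnd2, Cdkn1a, Mki67, Rbl1, Ccne1 and Cdk6. Of all 8343 tested genes, 5769 were lower in both replicates. The groups did not overlap for 38 lower and 5 higher genes, beside 53.1% lower and 16.1% higher of all tested genes. The mean of 30 genes was under 25% of the 0 min mean and that of 14 genes under 10%, and for 31 genes the mean fell at each step of the time course. No share over all tested genes is given for these counts. The median log2 change of all tested genes was itself -0.20 at 20 min, -0.29 at 60 min and -0.69 at 180 min.

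Changes are given as differences of log2(FPKM + 0.1), a scale that understates the change of low genes, with the standard error of a limma fit over all 8 libraries. A gene is called at an adjusted p under 0.05 over the 8343 genes whose mean level reached 0.5 FPKM. Of the 44 genes, 35 were tested so, and 25 were called at 180 min against 0 min, 23 lower and 2 higher, beside 23.4% lower and 8.93% higher of all tested genes. A fit that pairs libraries with the same replicate number called 28 lower and 4 higher, beside 51.6% and 14.2% of all tested genes. Standard errors are those of the unpaired fit, also where a paired p-value stands beside them. The median change was -2.34 over the 35 genes and -0.69 over all tested genes. Scaling the libraries by median ratios moved these medians to -1.84 and -0.01, and 17 of the 35 were then called lower and 3 higher, beside 12.6% and 13.5% of all tested genes. The 6 lower calls lost with it were Ccnd3, Ccne2, Cdkn2c, Mcm6, Pcna and Top2a. Changes at 180 min below are thus to be read against a shift of -0.69 over all tested genes.

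**Figure D1:**
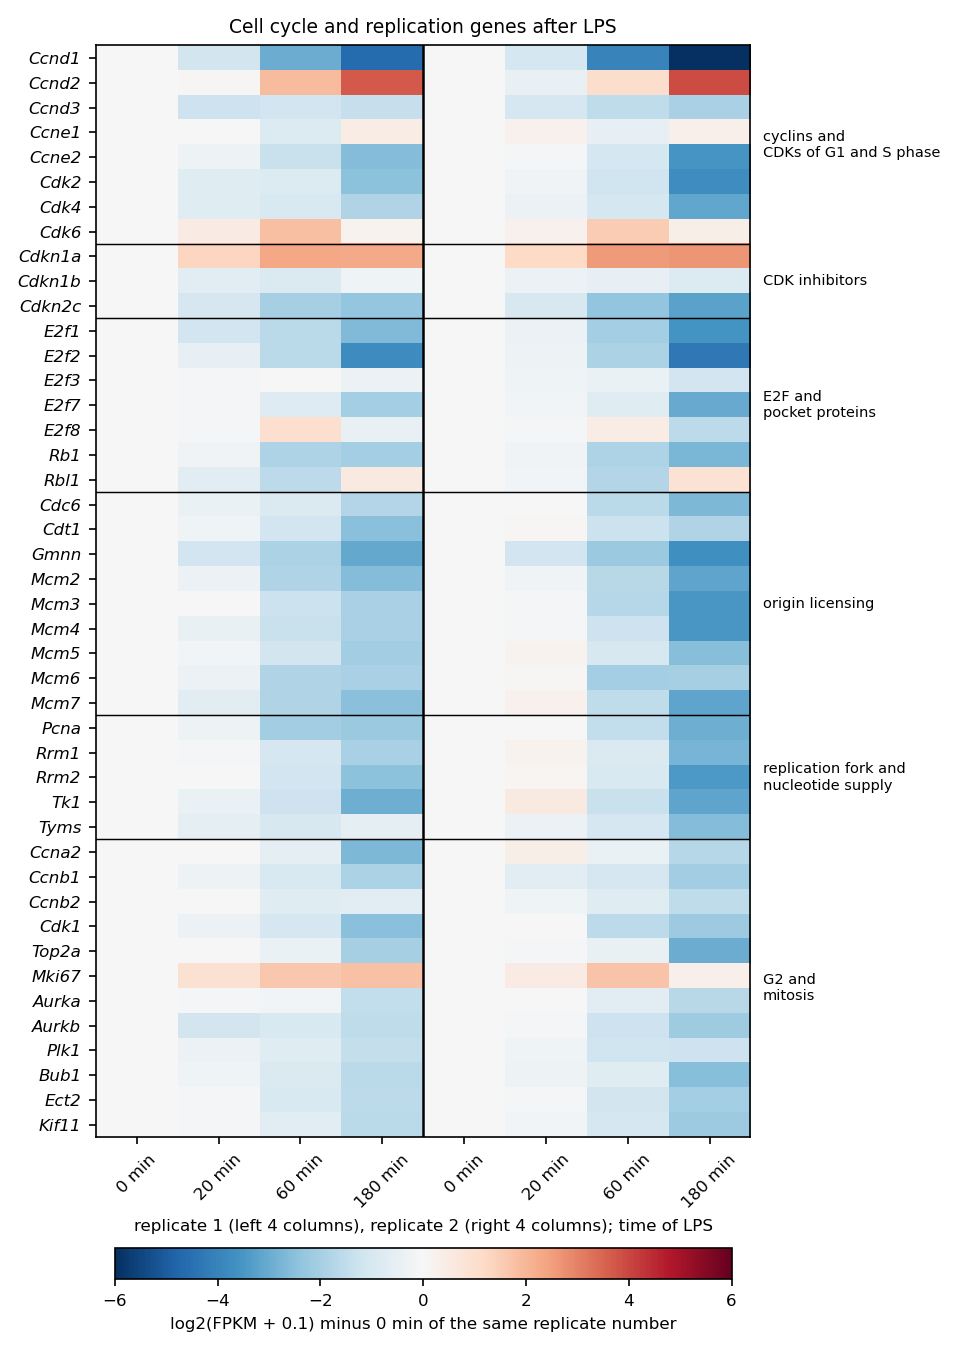
Each row is a gene, grouped by role, and each column a library. The colour is the log2(FPKM + 0.1) level minus that of the 0 min library of the same replicate number, blue lower and red higher: in the 180 min columns of both replicates, 38 of the 44 rows are below their 0 min level and 6 above it.

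Of the 3 D-type cyclin genes, Ccnd1 and Ccnd2 exchanged places. Ccnd1, the D-type cyclin gene with the highest level in untreated cells (NM_007631, mm9 chr7:152115836-152125830, minus strand), was at 4.96 and 14.2 FPKM at 0 min, 2.22 and 6.74 at 20 min, 0.541 and 0.791 at 60 min and 0.104 and 0.126 at 180 min. Every library at 60 and 180 min was below every library at 0 min, while the groups overlapped at 20 min. The change of Ccnd1 was -3.49 ± 0.64 (adjusted p = 0.0156) at 60 min and -5.31 ± 0.64 (adjusted p = 0.00194) at 180 min, the lowest among the 35 tested genes at either time. Ccnd2 (NM_009829, mm9 chr6:127075727-127101066, minus strand) moved the other way, being at 0.099 and 0.336 FPKM at 0 min, 0.106 and 0.225 at 20 min, 0.649 and 0.812 at 60 min and 2.46 and 6.4 at 180 min. Its 60 and 180 min libraries lay above every 0 min library. The rise of 3.79 ± 0.57 (adjusted p = 0.00397) at 180 min was the highest change of the 35, and the 60 min change of 1.49 ± 0.57 (adjusted p = 0.138 unpaired and 0.0042 paired) was called in the paired fit alone. Ccnd3 was at 1.66 and 3.28 FPKM at 0 min, 0.634 and 1.58 at 20 min, 0.698 and 1.07 at 60 min and 0.569 and 0.767 at 180 min. It was lower than at 0 min in every later library and was called at 180 min, -1.68 ± 0.51 (adjusted p = 0.043), and at 60 min in the paired fit alone, -1.34 ± 0.51 (adjusted p = 0.136 unpaired and 0.00342 paired). The 180 min call of Ccnd3 was lost with median-ratio scaling (-0.99, adjusted p = 0.299), with no level filter (adjusted p = 0.0644) and in 4 of the 8 fits without 1 library.

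Set against each other per length, Ccnd1 made up 73.8% and 79.8% of the summed level of the 3 genes at 0 min, and Ccnd2 1.47% and 1.88%. At 60 min the 3 genes stood close together, with Ccnd1 at 28.7% and 29.6%, Ccnd2 at 34.4% and 30.4% and Ccnd3 at 37.0% and 40.0%. At 180 min Ccnd2 made up 78.6% and 87.8% and Ccnd1 3.31% and 1.73%. Ccnd3 was second at both ends, with 24.7% and 18.4% at 0 min and 18.1% and 10.5% at 180 min. The summed level itself went from 6.72 and 17.9 FPKM at 0 min to 1.89 and 2.67 at 60 min and 3.14 and 7.29 at 180 min.

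**Figure D2:**
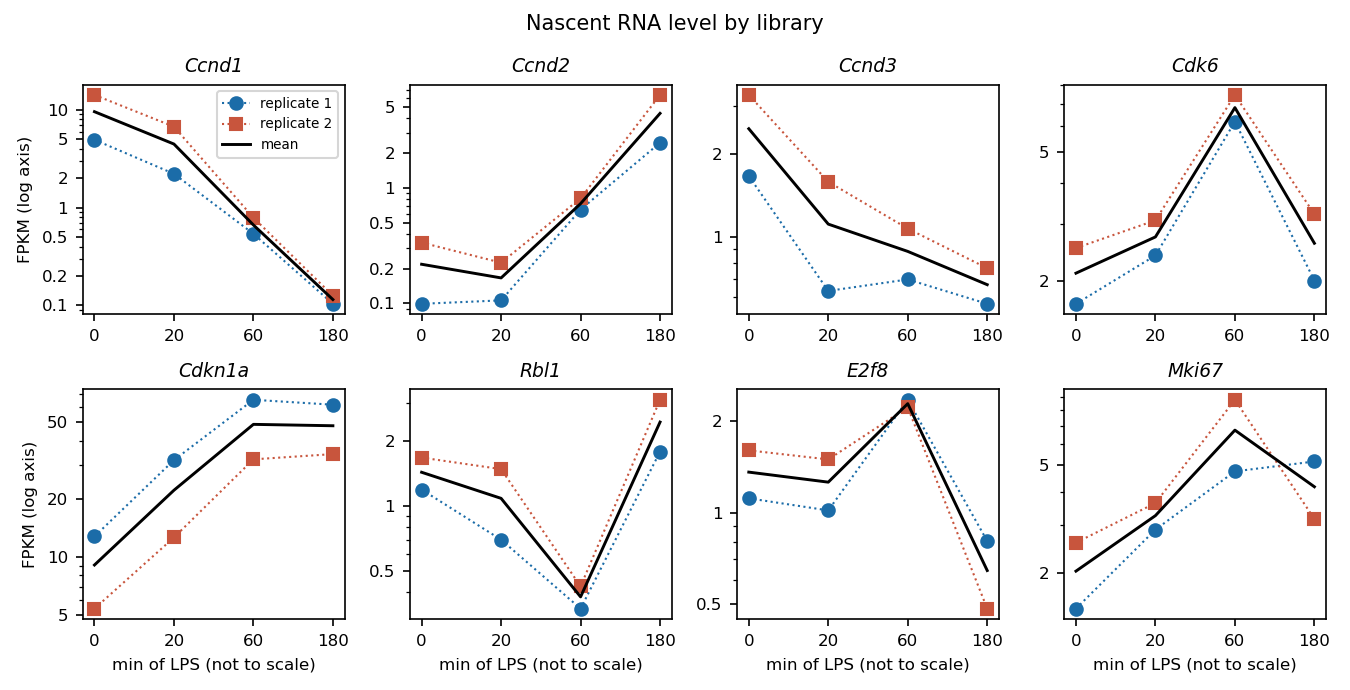
Each panel shows 1 gene, with FPKM on a log axis against time of LPS (evenly spaced, not to scale), circles for replicate 1, squares for replicate 2 and a black line for the mean of both. Ccnd1 goes from a mean of 9.6 to 0.115 FPKM while Ccnd2 reaches 4.43, Cdk6 and E2f8 are highest at 60 min, and Rbl1 is lowest there.

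The kinase partners of these cyclins divided. Cdk6, whose product pairs with D-type cyclins, was at 1.71 and 2.53 FPKM at 0 min, 2.4 and 3.08 at 20 min, 6.19 and 7.48 at 60 min and 2.01 and 3.22 at 180 min. It stood above every 0 min library at 60 min and overlapped them again at 180 min. Its 60 min change of 1.66 ± 0.36 (adjusted p = 0.0262) was the only higher call of the unpaired fit at that time among the 35. Its return between 60 and 180 min, -1.38 ± 0.36 (adjusted p = 0.0656 unpaired and 0.00148 paired), was called in the paired fit alone. With median-ratio scaling the 60 min call of Cdk6 was lost (1.97, adjusted p = 0.054). Cdk4, the other partner of D-type cyclins, was at 3.35 and 2.88 FPKM at 0 min, 1.96 and 2.23 at 20 min, 1.75 and 1.34 at 60 min and 0.876 and 0.239 at 180 min. Both replicates were lower at each later time, and the 180 min change was -2.48 ± 0.49 (adjusted p = 0.0105). From 60 to 180 min the change of Cdk4, -1.51 ± 0.49 (adjusted p = 0.114 unpaired and 0.0131 paired), was called in the paired fit alone. Cdk2, the partner of cyclins E and A, was at 2.11 and 2.36 FPKM at 0 min, 1.23 and 2.02 at 20 min, 1.16 and 0.985 at 60 min and 0.295 and 0.088 at 180 min. Its 180 min libraries lay below every 0 min library, with a change of -3.10 ± 0.42 (adjusted p = 0.00283), of which -2.10 ± 0.42 (adjusted p = 0.0311) came between 60 and 180 min.

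The cyclin E genes separated. Ccne1 was at 0.643 and 0.528 FPKM at 0 min, 0.627 and 0.645 at 20 min, 0.321 and 0.34 at 60 min and 0.896 and 0.674 at 180 min. Its 60 min libraries were below and its 180 min libraries above those at 0 min, but the 180 min difference of 0.36 ± 0.28 (adjusted p = 0.34 unpaired and 0.209 paired) was not called. With median-ratio scaling it was called higher (1.01, adjusted p = 0.0301), and between 60 and 180 min it was called higher in the paired fit, 1.03 ± 0.28 (adjusted p = 0.0737 unpaired and 0.012 paired). Ccne2 was at 0.85 and 2.29 FPKM at 0 min, 0.67 and 2.13 at 20 min, 0.276 and 1.06 at 60 min and 0.059 and 0.106 at 180 min. It was lowest in both 180 min libraries, and that change was -3.06 ± 0.75 (adjusted p = 0.0226), not called with median-ratio scaling (-2.53, adjusted p = 0.0714). Its changes of -1.19 ± 0.75 (adjusted p = 0.364 unpaired and 0.0184 paired) at 60 min and -1.87 ± 0.75 (adjusted p = 0.18 unpaired and 0.00303 paired) from 60 to 180 min passed in the paired fit only. The gene Ints8 lies over 43.0% of Ccne2 on the other strand. The reads of Ints8 at 180 min, spread evenly, would give Ccne2 0.553 and 0.526 FPKM, more than the whole listed level of Ccne2 there.

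Among the CDK inhibitors, Cdkn1a, which encodes p21 (NM_007669, mm9 chr17:29230717-29237667, plus strand), had the highest level of all 44 genes, a mean of 31.8 FPKM over the 8 libraries. It was at 12.7 and 5.38 FPKM at 0 min, 31.7 and 12.6 at 20 min, 65.0 and 32.0 at 60 min and 61.3 and 34.0 at 180 min. Within each replicate every later library was above that at 0 min, and replicate 1 was the higher at every time. The change of Cdkn1a was 1.26 ± 0.67 (adjusted p = 0.963 unpaired and 0.018 paired) at 20 min, 2.45 ± 0.67 (adjusted p = 0.0554 unpaired and 7.02e-05 paired) at 60 min and 2.45 ± 0.67 (adjusted p = 0.0313) at 180 min. The 180 min call was lost without the 0 min library of replicate 2 (adjusted p = 0.142) and without the 180 min library of replicate 1 (0.116) or of replicate 2 (0.0893), and with no level filter (0.0558). Cdkn2c, which encodes p18, an inhibitor of CDK4 and CDK6, moved the other way and was at 1.15 and 4.2 FPKM at 0 min, 0.52 and 2.09 at 20 min, 0.214 and 0.739 at 60 min and 0.15 and 0.363 at 180 min. Both of its 60 min and both of its 180 min values were below every 0 min value, and the 180 min change was -2.77 ± 0.86 (adjusted p = 0.0472). That call was lost with median-ratio scaling (-2.13, adjusted p = 0.163), with no level filter (adjusted p = 0.0755) and in 3 of the 8 fits without 1 library. Cdkn1b, which encodes p27, was at 6.88 and 5.77 FPKM at 0 min, 4.2 and 4.53 at 20 min, 3.75 and 4.1 at 60 min and 5.72 and 3.26 at 180 min. Its 180 min difference of -0.53 ± 0.35 (adjusted p = 0.265 unpaired and 0.101 paired) was not called and became 0.19 with median-ratio scaling.

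The E2F genes and the pocket protein genes followed several courses. E2f2, an activator of S phase genes (NM_177733, mm9 chr4:135728309-135751971, plus strand), was at 2.22 and 2.16 FPKM at 0 min, 1.57 and 1.74 at 20 min, 0.655 and 0.509 at 60 min and 0.071 and 0.016 at 180 min. Its groups did not overlap with 0 min at any of the 3 later times, and the lowest value rests on 3 reads (95% Poisson interval 0.00328 to 0.0465 FPKM, counting error only). The change of E2f2 was -1.76 ± 0.30 (adjusted p = 0.0125) at 60 min, -4.02 ± 0.30 (adjusted p = 0.000568) at 180 min and -2.27 ± 0.30 (adjusted p = 0.00938) between 60 and 180 min. E2f1, also an activator, was at 3.69 and 2.02 FPKM at 0 min, 1.62 and 1.55 at 20 min, 1.14 and 0.413 at 60 min and 0.503 and 0.074 at 180 min. It was lower at each step in both replicates, with a 180 min change of -3.13 ± 0.68 (adjusted p = 0.0143). Its change from 60 to 180 min, -1.30 ± 0.68 (adjusted p = 0.277 unpaired and 0.025 paired), was called in the paired fit alone. E2f3, the remaining activator gene, was at 1.26 and 1.74 FPKM at 0 min, 1.2 and 1.45 at 20 min, 1.3 and 1.3 at 60 min and 0.987 and 0.735 at 180 min. Its 180 min difference of -0.74 ± 0.29 (adjusted p = 0.0933 unpaired and 0.028 paired) was called in the paired fit alone, was close to the shift over all tested genes and became -0.06 with median-ratio scaling.

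The repressor gene E2f8 was at 1.11 and 1.6 FPKM at 0 min, 1.02 and 1.5 at 20 min, 2.36 and 2.23 at 60 min and 0.805 and 0.481 at 180 min. It was above every 0 min library at 60 min and below them at 180 min. The fall between 60 and 180 min was called, -1.72 ± 0.35 (adjusted p = 0.0324), though not with median-ratio scaling (-1.36, adjusted p = 0.0589), while the 60 min difference of 0.73 ± 0.35 (adjusted p = 0.228 unpaired and 0.0852 paired) was not. From 0 to 180 min the change of -0.99 ± 0.35 (adjusted p = 0.0698 unpaired and 0.0186 paired) was called in the paired fit alone. E2f7, the related repressor gene, was under the level filter at 0.448 and 0.869 FPKM at 0 min, 0.406 and 0.762 at 20 min, 0.223 and 0.495 at 60 min and 0.033 and 0.021 at 180 min, without the 60 min peak of E2f8.

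Rbl1, which encodes the pocket protein p107, had its lowest level where E2f8 had its highest. It was at 1.2 and 1.68 FPKM at 0 min, 0.701 and 1.49 at 20 min, 0.336 and 0.426 at 60 min and 1.79 and 3.12 at 180 min. The 60 min libraries were below and the 180 min libraries above every 0 min library. The fall to 60 min, -1.67 ± 0.44 (adjusted p = 0.0487), and the rise from 60 to 180 min, 2.37 ± 0.44 (adjusted p = 0.0245), were called, and the rise from 0 to 180 min, 0.70 ± 0.44 (adjusted p = 0.249 unpaired and 0.0307 paired), in the paired fit alone. The call of the fall was lost in each of the 8 fits without 1 library (adjusted p up to 0.221), with median-ratio scaling (-1.36, adjusted p = 0.178) and with no level filter (adjusted p = 0.0663), and the rise from 60 to 180 min was called in 5 of those 8 fits. Rb1, the retinoblastoma gene and the founding pocket protein, was at 0.952 and 1.41 FPKM at 0 min, 0.813 and 1.22 at 20 min, 0.187 and 0.314 at 60 min and 0.155 and 0.123 at 180 min. It was low at 60 min and still low at 180 min, with changes of -1.87 ± 0.36 (adjusted p = 0.018) and -2.40 ± 0.36 (adjusted p = 0.00406). With median-ratio scaling the 60 min call was lost (-1.56, adjusted p = 0.0556). The receptor gene Lpar6 lies within Rb1 on the other strand, over 1.89% of it. Lpar6 was at 14.6 and 20.7 FPKM at 0 min and 2.23 and 1.43 at 180 min, and its reads, spread evenly, would give Rb1 0.276 and 0.393 FPKM at 0 min. The sources used here do not say how strand was counted, and the part of Lpar6 in the values of Rb1 was not tested.

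Among origin licensing genes every tested member was called at 180 min in the unpaired and paired fits. The complex of MCM proteins is the replicative helicase, Cdt1 and Cdc6 load it onto DNA, and geminin, the product of Gmnn, holds Cdt1 back. All 7 tested members were called lower at 180 min, with a median change of -2.72 and a range from -3.39 to -1.96. With median-ratio scaling 6 of the 7 were called, without Mcm6 (-1.30, adjusted p = 0.207). Gmnn, the inhibitor, had the lowest 180 min change of the 7 tested members and was at 1.71 and 2.46 FPKM at 0 min, 0.724 and 1.06 at 20 min, 0.378 and 0.445 at 60 min and 0.112 and 0.1 at 180 min. Each later group lay below every 0 min library, at 20 min too, where the difference of -1.14 ± 0.32 (adjusted p = 0.523 unpaired and 0.0505 paired) was not called. The change of Gmnn was -2.08 ± 0.32 (adjusted p = 0.00878) at 60 min and -3.39 ± 0.32 (adjusted p = 0.000979) at 180 min. Cdt1 was at 3.42 and 1.94 FPKM at 0 min, 2.87 and 2.08 at 20 min, 1.47 and 0.738 at 60 min and 0.529 and 0.491 at 180 min. It was called at 180 min, -2.14 ± 0.42 (adjusted p = 0.0101), and at 60 min in the paired fit alone, -1.23 ± 0.42 (adjusted p = 0.104 unpaired and 0.00485 paired), as from 60 to 180 min, -0.91 ± 0.42 (adjusted p = 0.227 unpaired and 0.0227 paired).

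The 6 MCM genes stood at 21.8% to 43.4% of their 0 min mean at 60 min. Mcm7 was at 1.52 and 1.09 FPKM at 0 min, 0.9 and 1.34 at 20 min, 0.361 and 0.309 at 60 min and 0.18 and 0.035 at 180 min, the last value resting on 2 reads. It was the MCM gene called lower at 60 min in the unpaired fit, -1.68 ± 0.43 (adjusted p = 0.0447), a call lost with median-ratio scaling (-1.38, adjusted p = 0.0558) and kept in 2 of the 8 fits without 1 library, and its 180 min change was -2.84 ± 0.43 (adjusted p = 0.00404). Mcm5, whose promoter is shown above, was at 0.857 and 0.929 FPKM at 0 min, 0.743 and 1.1 at 20 min, 0.349 and 0.428 at 60 min and 0.122 and 0.073 at 180 min. Its values at 60 and 180 min were below all values at 0 min, with a 180 min change of -2.34 ± 0.32 (adjusted p = 0.00287). Mcm3 was at 0.879 and 1.78 FPKM at 0 min, 0.897 and 1.63 at 20 min, 0.297 and 0.47 at 60 min and 0.156 and 0.066 at 180 min. Mcm4 was at 0.984 and 1.56 FPKM at 0 min, 0.705 and 1.46 at 20 min, 0.329 and 0.612 at 60 min and 0.177 and 0.047 at 180 min. Both were lower at 60 min and lower again at 180 min, where their changes were -2.72 ± 0.47 (adjusted p = 0.00655) and -2.73 ± 0.51 (adjusted p = 0.00829). At 60 min the changes of Mcm3, -1.51 ± 0.47 (adjusted p = 0.0814 unpaired and 0.0115 paired), Mcm4, -1.28 ± 0.51 (adjusted p = 0.151 unpaired and 0.0383 paired), and Mcm5, -1.03 ± 0.32 (adjusted p = 0.0807 unpaired and 0.018 paired), were called in the paired fit alone. Between 60 and 180 min, Mcm3, Mcm4, Mcm5 and Mcm7 changed by -1.45 to -1.16, each called in the paired fit alone (adjusted p from 0.0556 to 0.171 unpaired and from 0.00781 to 0.0331 paired). Mcm6 was as low at 60 min as at 180 min, at 1.43 and 2.57 FPKM at 0 min, 1.08 and 2.71 at 20 min, 0.336 and 0.551 at 60 min and 0.296 and 0.577 at 180 min. Its change was -1.96 ± 0.53 (adjusted p = 0.0312) from 0 to 180 min and -0.04 ± 0.53 (adjusted p = 0.971) from 60 to 180 min. Mcm2, under the level filter, was at 0.751 and 0.855 FPKM at 0 min, 0.56 and 0.736 at 20 min, 0.145 and 0.205 at 60 min and 0.038 and 0.008 at 180 min, and Cdc6, also under it, went from 0.587 and 0.849 FPKM at 0 min to 0.1 and 0.047 at 180 min.

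Of the 5 genes of the replication fork and of nucleotide supply, 4 were called lower at 180 min and all 5 in the paired fit, with a median change of -2.58. Pcna, the sliding clamp of the DNA polymerases and the gene of this group with the highest level, was at 9.75 and 18.5 FPKM at 0 min, 7.88 and 18.8 at 20 min, 2.23 and 6.58 at 60 min and 2.0 and 2.35 at 180 min. In replicate 1 the 60 min level was close to that at 180 min, while in replicate 2 it was well above it. The change of Pcna was -2.58 ± 0.64 (adjusted p = 0.0237) at 180 min, not called with median-ratio scaling (-1.85, adjusted p = 0.139), and that at 60 min, -1.78 ± 0.64 (adjusted p = 0.12 unpaired and 0.00186 paired), was called in the paired fit alone. Rrm2, the regulated subunit of ribonucleotide reductase, was at 1.34 and 1.22 FPKM at 0 min, 1.3 and 1.32 at 20 min, 0.542 and 0.595 at 60 min and 0.157 and 0.021 at 180 min. Tk1, thymidine kinase, was at 1.14 and 0.915 FPKM at 0 min, 0.843 and 1.35 at 20 min, 0.425 and 0.3 at 60 min and 0.064 and 0.012 at 180 min. The last values of Rrm2 and Tk1 rest on 1 read each, with 95% Poisson intervals of 0.00054 to 0.119 and 0.000303 to 0.0667 FPKM. Their changes were -2.97 ± 0.39 (adjusted p = 0.00247) and -3.05 ± 0.37 (adjusted p = 0.00196) at 180 min and -1.92 ± 0.39 (adjusted p = 0.0318) and -1.76 ± 0.37 (adjusted p = 0.0361) between 60 and 180 min. Rrm1, the large subunit of the reductase, was at 0.801 and 1.33 FPKM at 0 min, 0.719 and 1.54 at 20 min, 0.344 and 0.691 at 60 min and 0.133 and 0.107 at 180 min, a 180 min change of -2.37 ± 0.47 (adjusted p = 0.0105). Calls in the paired fit alone were those of Rrm1 from 60 to 180 min, -1.43 ± 0.47 (adjusted p = 0.116 unpaired and 0.00873 paired), and at 60 min of Rrm1, -0.94 ± 0.47 (adjusted p = 0.249 unpaired and 0.0409 paired), Rrm2, -1.05 ± 0.39 (adjusted p = 0.129 unpaired and 0.0294 paired), and Tk1, -1.29 ± 0.37 (adjusted p = 0.065 unpaired and 0.0126 paired). Tyms, thymidylate synthase, was at 0.766 and 1.87 FPKM at 0 min, 0.475 and 1.43 at 20 min, 0.34 and 0.868 at 60 min and 0.475 and 0.22 at 180 min. It ended at 62.0% of its 0 min level in replicate 1 and 11.7% in replicate 2, and the change of -1.61 ± 0.67 (adjusted p = 0.107 unpaired and 0.0175 paired) was called in the paired fit alone.

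The genes of G2 and mitosis had the lowest median level of the groups at 0 min, 0.802 and 1.01 FPKM over 12 genes, and 6 of them passed the level filter. Of these 6, Ccna2, Cdk1 and Top2a were called lower at 180 min, and in the paired fit also Ccnb2 and Aurkb lower and Mki67 higher. Ccna2, cyclin A, was at 1.36 and 1.02 FPKM at 0 min, 1.31 and 1.35 at 20 min, 0.862 and 0.756 at 60 min and 0.123 and 0.247 at 180 min. It was lowest in both 180 min libraries. Its difference was -0.50 ± 0.32 (adjusted p = 0.37) from 0 to 60 min, and its change was -1.71 ± 0.32 (adjusted p = 0.0253) from 60 to 180 min and -2.20 ± 0.32 (adjusted p = 0.00345) from 0 to 180 min. With median-ratio scaling the call from 60 to 180 min was lost (-1.40, adjusted p = 0.0757). Exosc9 lies over 12.1% of Ccna2 on the other strand, and its reads, spread evenly, would give Ccna2 0.101 and 0.0579 FPKM at 180 min. Top2a, the topoisomerase that untangles sister chromatids, was at 0.956 and 2.61 FPKM at 0 min, 0.947 and 2.38 at 20 min, 0.709 and 1.87 at 60 min and 0.167 and 0.241 at 180 min. Its difference was -0.42 ± 0.66 (adjusted p = 0.747) at 60 min and its change -2.49 ± 0.66 (adjusted p = 0.0284) at 180 min, the latter not called with median-ratio scaling (-1.88, adjusted p = 0.126). Cdk1, the kinase that starts mitosis, was at 1.24 and 0.844 FPKM at 0 min, 0.943 and 0.874 at 20 min, 0.557 and 0.215 at 60 min and 0.137 and 0.108 at 180 min. Its 60 and 180 min values were below all 0 min values, with a 180 min change of -2.34 ± 0.41 (adjusted p = 0.00705). From 60 to 180 min Cdk1 was called in the paired fit alone, -1.03 ± 0.41 (adjusted p = 0.178 unpaired and 0.0252 paired). Ccnb2, a cyclin partner of CDK1, was at 0.843 and 1.33 FPKM at 0 min, 0.831 and 1.1 at 20 min, 0.468 and 0.771 at 60 min and 0.493 and 0.39 at 180 min. Aurkb, a kinase of chromosome alignment, was at 3.54 and 1.25 FPKM at 0 min, 1.58 and 1.13 at 20 min, 1.84 and 0.463 at 60 min and 1.17 and 0.209 at 180 min. Their 180 min changes of -1.11 ± 0.36 (adjusted p = 0.0531 unpaired and 0.00728 paired) and -1.83 ± 0.87 (adjusted p = 0.144 unpaired and 0.00204 paired) were called in the paired fit alone, as was the 60 min change of Aurkb, -1.08 ± 0.87 (adjusted p = 0.483 unpaired and 0.0369 paired).

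Mki67, the gene of the Ki-67 protein by which cycling cells are commonly stained, differed in direction from the others of its group (NM_001081117, mm9 chr7:142881471-142908062, minus strand). It was at 1.47 and 2.59 FPKM at 0 min, 2.89 and 3.63 at 20 min, 4.76 and 8.76 at 60 min and 5.17 and 3.17 at 180 min. Every library after LPS was above every library at 0 min, at all 3 times. The change of Mki67 was 0.70 ± 0.45 (adjusted p = 0.997 unpaired and 0.314 paired) at 20 min, 1.67 ± 0.45 (adjusted p = 0.0543 unpaired and 0.00563 paired) at 60 min and 1.01 ± 0.45 (adjusted p = 0.125 unpaired and 0.0312 paired) at 180 min.

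The 9 genes under the level filter (E2f7, Cdc6, Mcm2, Ccnb1, Aurka, Plk1, Bub1, Ect2 and Kif11) were each lower in both replicates at 180 min. A fit with no filter, over 19855 genes, gave them changes from -2.88 to -1.34 with a median of -1.98, and called 8 of the 9 lower, beside 17.0% of those genes. Among them, the mitotic kinase gene Plk1 kept 23.0% and 27.2% of its 0 min level and the checkpoint kinase gene Bub1 13.3% and 5.22%. Ccnb1, which encodes cyclin B1, kept 13.9% and 16.2%, and Kif11, the kinesin that separates the spindle poles, 18.1% and 14.2%. Aurka, a kinase of the centrosome, kept 26.9% and 14.8%, and Ect2, an exchange factor needed for cytokinesis, 17.3% and 12.8%.

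**Figure D3:**
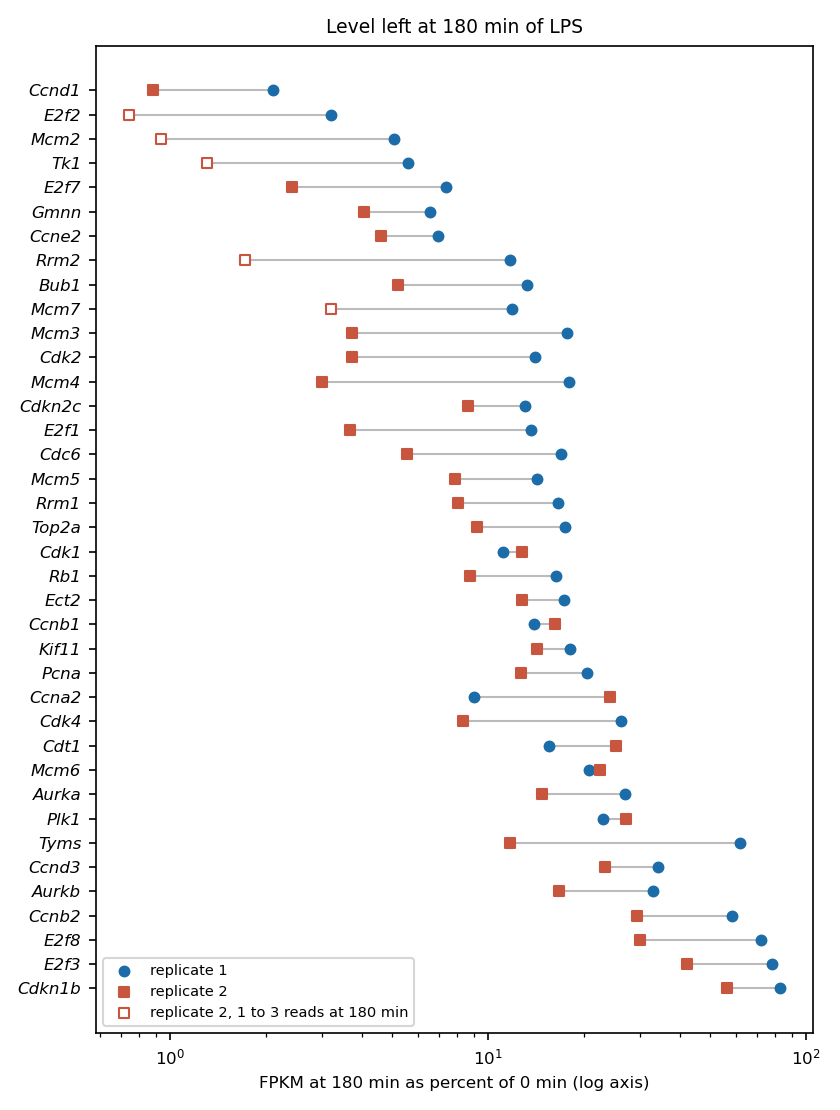
For the 38 genes lower at 180 min in both replicates, FPKM at 180 min as a percent of the 0 min library of the same replicate number, on a log axis, with circles for replicate 1, squares for replicate 2 and open squares for values resting on 1 to 3 reads. In 32 of the 38 genes the square lies to the left of the circle, as in 80.9% of all tested genes lower in both replicates.

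The remaining level was lower in replicate 2 than in replicate 1 for 32 of the 38 genes. Over all tested genes lower in both replicates, 4666 of 5769 (80.9%) had the lower remaining level in replicate 2, and the median change at 180 min was -0.98 without the 180 min library of replicate 1 and -0.37 without that of replicate 2. The 180 min library of replicate 2 held 7.96 M reads and that of replicate 1 44.4 M reads, and E2f2, Mcm2, Mcm7, Rrm2 and Tk1 had 1 to 3 reads in the shallower one. The part of depth in this difference was not tested. With the 180 min or the 0 min library of replicate 2 left out, fewer genes were called lower at 180 min, among the genes described here and over all tested genes alike. Over all tested genes the same held without the 0 min library of replicate 1 and without either 20 min library. The loss of calls was thus not particular to replicate 2. The genes called at 180 min in each of the 8 fits without 1 library were Ccnd1, Ccnd2, Cdk2, E2f2, Rb1, Gmnn, Mcm3, Mcm5, Mcm7, Rrm2, Tk1 and Ccna2. The share of all tested genes called in each of these fits is not given, so this list has no background beside it.

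At 20 min few of these genes stood apart from 0 min. Of the 35 tested genes, limma called 0 in either direction, beside 0.0% lower and 0.108% higher of all tested genes, and unpaired voom on the recovered reads also called 0. Paired voom did call some of the 35 in both directions (counts in the closing section), beside 439 higher and 922 lower of all tested genes. Without adjustment, 1 of the 35 and 498 of all tested genes had a p under 0.05. The paired fit called Cdkn1a alone, beside 2.3% of all tested genes higher and 0.683% lower. Ccnd3, with a change of -1.13 ± 0.51 (adjusted p = 0.873 unpaired and 0.0526 paired), was called in neither of the 2 fits. With median-ratio scaling the paired fit called Ccnd3 lower (adjusted p = 0.0404) and no longer called Cdkn1a (adjusted p = 0.0635). It called 168 higher and 23 lower of all tested genes. The groups did not overlap for 9 lower genes and 1 higher gene of the 44, beside 29.6% and 8.39% of all tested genes. The median change was -0.16, against -0.20 over all tested genes.

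At 60 min the level was lower in both replicates for 38 of the 44 genes, a count given without the share over all tested genes. The groups did not overlap for 31 lower and 5 higher genes, beside 36.7% and 17.2% of all tested genes. The unpaired fit called 7 of 35, Cdk6 higher and Ccnd1, E2f2, Rb1, Rbl1, Gmnn and Mcm7 lower, beside 5.07% of all tested genes higher and 8.8% lower. The paired fit called 4 higher and 21 lower, beside 11.7% and 27.9%. It added Ccnd2, Cdkn1a and Mki67 on the higher side and 15 genes on the lower side. The lowest paired p-values of the genes added on the lower side were those of Mcm6, -1.92 ± 0.53 (adjusted p = 0.0586 unpaired and 0.000362 paired), and Cdkn2c, -2.17 ± 0.86 (adjusted p = 0.149 unpaired and 0.000429 paired). Also added were E2f1, -1.83 ± 0.68 (adjusted p = 0.127 unpaired and 0.00437 paired), and Cdk1, -1.30 ± 0.41 (adjusted p = 0.0842 unpaired and 0.00779 paired). With median-ratio scaling the unpaired fit called 1 higher, Cdkn1a, and 3 lower, Ccnd1, E2f2 and Gmnn, beside 6.72% and 6.63% of all tested genes. Without any single 0 min or 60 min library the unpaired fit called fewer genes lower, among the 35 and over all tested genes alike. Cdk6 was called in 2 of the 8 fits without 1 library. The median change was -1.08, against -0.29 over all tested genes.

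Between 60 and 180 min, 6 genes were called lower (Cdk2, E2f2, E2f8, Rrm2, Tk1 and Ccna2) and Rbl1 higher, beside 3.92% lower and 4.08% higher of all tested genes. The median change was -1.16, against -0.39 over all tested genes. The paired fit called 20 lower and 3 higher, beside 26.9% and 10.5%. Among the 14 genes it added on the lower side were Top2a, -2.06 ± 0.66 (adjusted p = 0.108 unpaired and 0.000949 paired), Ccnd1, -1.82 ± 0.64 (adjusted p = 0.14 unpaired and 0.00533 paired), and Gmnn, -1.31 ± 0.32 (adjusted p = 0.0559 unpaired and 0.0048 paired). On the higher side it added Ccne1 and Ccnd2, 2.30 ± 0.57 (adjusted p = 0.057 unpaired and 0.000664 paired). With median-ratio scaling the unpaired fit called 4 lower and 2 higher, beside 2.89% and 5.08%. Leaving out the 180 min library of replicate 1 gave more lower calls and leaving out any other library gave fewer, here and over all tested genes alike. The comparisons share libraries, so their values are not independent.

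**Figure D4:**
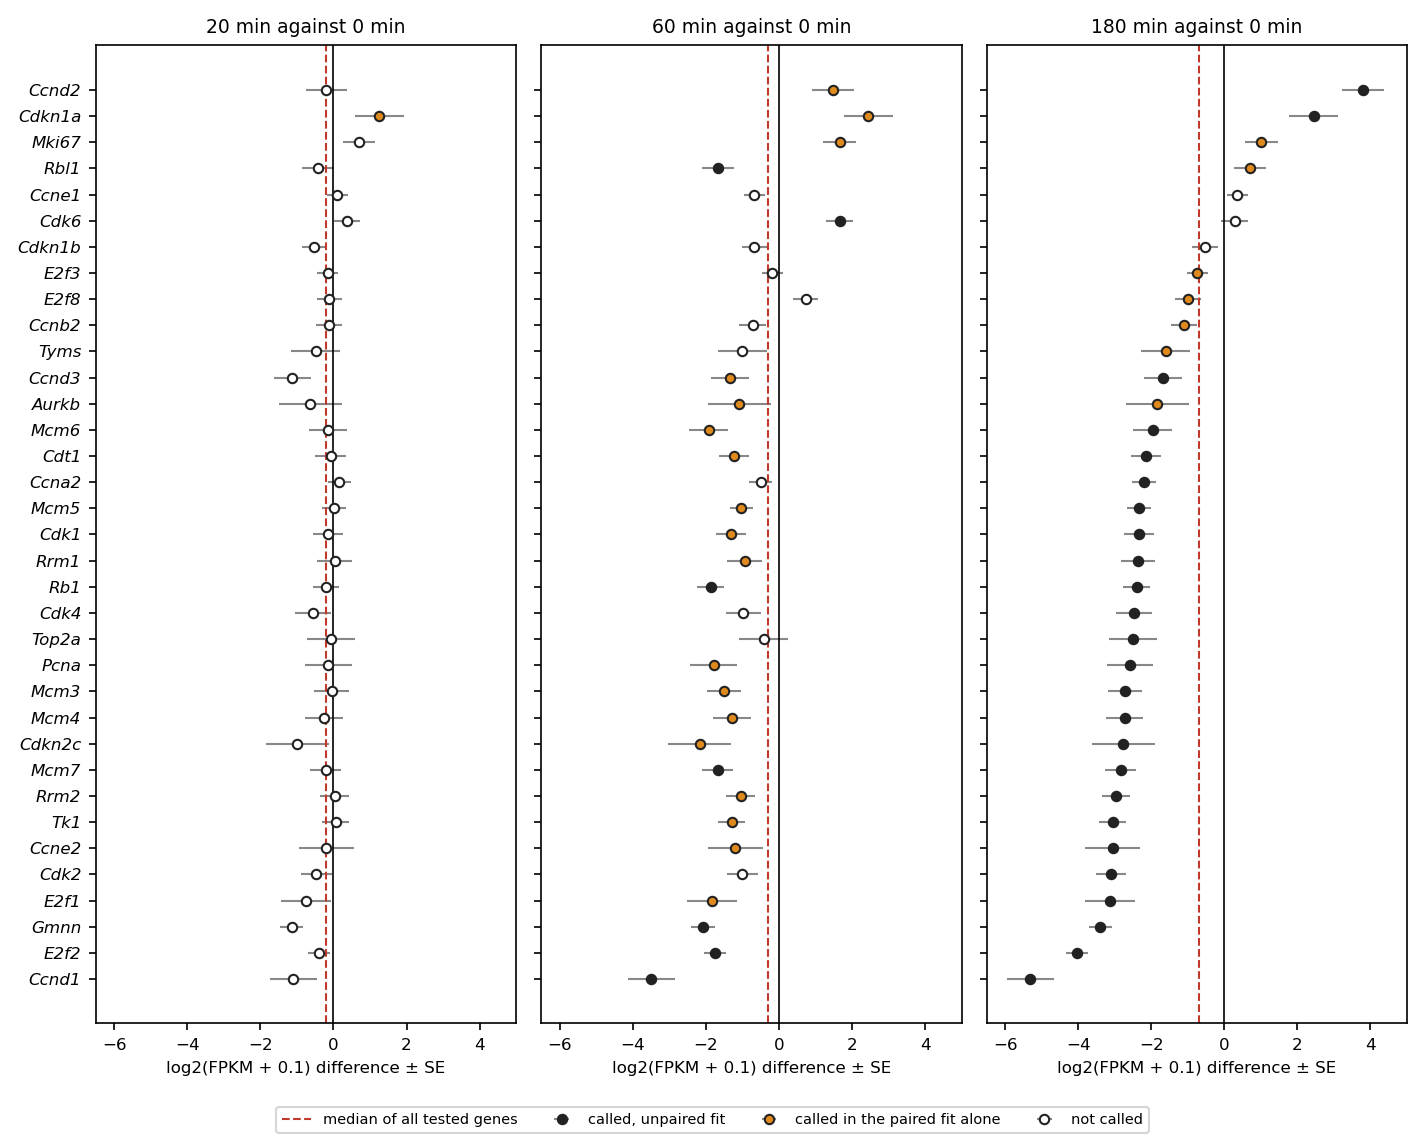
Change of each of the 35 tested genes on the log2(FPKM + 0.1) scale ± SE at 20, 60 and 180 min against 0 min, ordered by the 180 min value, with black points called in the unpaired fit, orange points in the paired fit alone and open points in neither. The dashed line is the median of all tested genes, -0.20, -0.29 and -0.69, and the median of the 35 lies at -0.16, -1.08 and -2.34.

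Other genes of the same processes, from lists drawn up by function, were counted in the same way at 180 min. Of 52 other replication genes, 30 were tested and 17 called lower, 24 in the paired fit, with a median change of -1.83, beside 23.4% and 51.6% of all tested genes and their median of -0.69. With median-ratio scaling 12 were called lower and the median was -1.21. The largest falls were in Dnmt1, the maintenance DNA methyltransferase, in the nuclease and helicase gene Dna2 and in Uhrf1, the partner of Dnmt1. Dnmt1 was at 1.99 and 1.55 FPKM at 0 min and 0.172 and 0.102 at 180 min. The changes of these 3 genes were -2.99 ± 0.29 (adjusted p = 0.00103), -2.91 ± 0.32 (0.00137) and -2.84 ± 0.38 (0.00269). Dck, deoxycytidine kinase of the nucleoside salvage pathway, was low at 60 min and high at 180 min. It was at 2.1 and 3.63 FPKM at 0 min, 0.758 and 1.04 at 60 min and 4.8 and 9.35 at 180 min (2.78 ± 0.50 from 60 to 180 min, adjusted p = 0.0228). Pold4, a small subunit of DNA polymerase delta and the gene with the highest level among those not called in the unpaired fit, was at 13.1 and 7.29 FPKM at 0 min and 5.94 and 4.63 at 180 min (-0.89 ± 0.59, adjusted p = 0.276 unpaired and 0.0282 paired).

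Of 55 other mitosis genes, 19 were tested and 11 called lower, 14 in the paired fit, with a median of -1.66, and 6 called and a median of -1.09 with median-ratio scaling. They were led by the phosphatase gene Cdc25b (-3.16 ± 0.34, adjusted p = 0.00137), the kinesin gene Kif23 (-3.13 ± 0.33, 0.00136) and Ccnf, cyclin F (-2.57 ± 0.30, 0.00173). Pttg1, which encodes securin, was at 1.72 and 1.02 FPKM at 0 min and 3.92 and 4.79 at 180 min (1.64 ± 0.55, adjusted p = 0.0588 unpaired and 0.00418 paired). Both of its 180 min values were above both 0 min values.

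Of 36 other regulators of the cycle, 25 were tested, 6 called lower and 1 higher at 180 min (14 and 3 in the paired fit), with a median of -0.81. The 6 of 25 lower calls are 24.0% and the 14 are 56.0%, near the 23.4% and 51.6% of all tested genes in these unscaled fits. With median-ratio scaling 6 (24.0%) were called lower and 2 higher, beside 12.6% and 13.5% of all tested genes. The median was then -0.1, against -0.01 over all tested genes. Fbxo5, an inhibitor of the anaphase-promoting complex, fell by 3.45 ± 0.57 (adjusted p = 0.00549). The CDK inhibitor gene Cdkn1c fell by 3.09 ± 0.48 (0.00449), and Skp2, the ubiquitin ligase subunit that targets p27, by 2.99 ± 0.36 (0.00193). The called rise was that of Cdkn2b, which encodes the CDK inhibitor p15, from 0.462 and 0.506 FPKM at 0 min to 1.12 and 1.46 at 180 min (1.24 ± 0.31, 0.0239). Of 68 histone genes named by the prefix of the clustered families, 48 were tested and 14 (29.2%) called lower at 180 min, beside 23.4% of all tested genes, with a median of -1.59. The paired fit called 36 (75.0%) lower, beside 51.6%. With median-ratio scaling 6 (12.5%) were called, beside 12.6%, and the median was -0.86, against -0.01 over all tested genes. Hist2h2be went from 12.5 and 12.8 FPKM to 1.57 and 0.864 (-3.33 ± 0.43, adjusted p = 0.00241). The histone genes with the highest levels, Hist2h2bb and Hist2h4, were not called in the unpaired fit (-1.58 ± 0.80, adjusted p = 0.167 unpaired and 0.000598 paired, and -0.18 ± 1.33, 0.925 and 0.675).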

How the data were processed

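GRO-seq libraries of 4 groups with 2 replicates each were analysed. The deposited table gives FPKM per gene for each library, computed by the authors, per the file headers, over genes placed on mm9. Tools named in the submitters' processing notes are CASAVA 1.7, Bowtie2 2.0.5 and HOMER 4.6 and 4.7. The sources used here do not give their settings, the treatment of strand or whether start coordinates count from 0 or 1. The gene length equals end minus start in 99.3% of rows, so introns are counted. Another 8 columns of library values, which match none of these 8 samples, were not used.

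The 44 members, their roles and the other gene lists were chosen with earlier results of these data known. Levels were tested as log2(FPKM + 0.1) with limma 3.58.1 (R 4.3.3, empirical Bayes with a trend), unpaired, over all 8 libraries. Genes whose 8 values averaged under 0.5 FPKM were left out, which kept 8343 of 22753 genes, and p-values were adjusted by Benjamini-Hochberg over these. Depth was recovered from the steps between low FPKM values, of which at least 98.0% came out whole to within 0.1 read. The deviations of same-numbered libraries from their group means correlated at 0.595 to 0.882 over the 6 pairs of groups. The numbers were therefore taken to pair the libraries, and the paired value is printed where it changes a call. Intervals are exact Poisson intervals at 95% and cover counting error only. By rule, values in every library were given for each member called in the unpaired fit or called differently in the paired fit and for the member with the highest level of each role, and the remaining ones by range, percent or count. The scripts were tested on simulated data. Alternatives changed the pseudocount, the filter, the scaling and the pairing, used voom on recovered reads and left out each library in turn.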

Additional observations from a re-analysis of the deposited data

How the results depend on the processing

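Of the changes of single genes called in the unpaired or the paired fit, recomputed under 19 alternatives, none changed sign, 1180 stayed on the same side of the threshold, 160 passed it and 162 lost it. Changes called only in other fits are not among these. Pairing the libraries (the replicate block) gave, as higher and lower calls, 1 and 0 of the 35 genes at 20 min, 4 and 21 at 60 min, 4 and 28 at 180 min and 3 and 20 from 60 to 180 min, against 0 and 0, 1 and 6, 2 and 23 and 1 and 6 unpaired. The replicate block with median-ratio scaling gave 0 and 1, 5 and 17, 6 and 24 and 3 and 15. Over all tested genes it gave 168 and 23, 1626 and 1696, 2176 and 2149 and 1251 and 1120. Of 2 combinations added after the data were seen, the replicate block with voom on recovered reads gave 1 and 6, 5 and 27, 4 and 28 and 3 and 22. The other, the replicate block with no filter over all 44 genes, gave 4 and 21 at 60 min, 2 and 34 at 180 min and 3 and 18 from 60 to 180 min. Over all tested genes the first gave 439 and 922, 1242 and 2767, 1290 and 4511 and 979 and 2673. The second gave 1115 and 3951, 1587 and 6591 and 922 and 1316 of 19855 genes. Unpaired, median-ratio scaling gave 3 lower at 60 min and 2 higher from 60 to 180 min. Quantile normalization gave 0 higher and 2 lower at 60 min, 12 lower at 180 min and 0 higher and 3 lower from 60 to 180 min. Over all tested genes it gave 625 higher and 577 lower, 960 lower, and 300 higher and 173 lower. A filter at 1 FPKM, which left 20 of the 44 genes, gave 2, 9 and 3 lower in these 3 comparisons, beside 360, 997 and 283 of 5660 genes. No filter gave 1 higher at 180 min and 0 higher and 2 lower from 60 to 180 min. Over 19855 genes these counts were 1002, 342 and 198. A pseudocount of 1 gave 3 higher at 60 min and 2 higher from 60 to 180 min, and voom on recovered reads gave the same 2 counts. Over all tested genes the pseudocount of 1 gave 457 and 359 higher, and voom 584 and 461. Apart from the filter at 1 FPKM, which tests fewer genes, the cause of these differences was not tested. Leaving out 1 library gave 0 to 1 higher and 0 to 6 lower at 60 min, 1 to 2 higher and 13 to 23 lower at 180 min, and 0 to 2 higher and 0 to 8 lower from 60 to 180 min. The group that loses a library then has 1, which is assumed to vary like the others. Over all tested genes, the calls at 180 min were 745 higher and 1951 lower and ranged over the alternatives from 402 to 2176 and from 832 to 6591. At 60 min they were 423 and 734, with ranges of 141 to 1626 and 102 to 3951. From 60 to 180 min they were 340 and 327, with ranges of 73 to 1251 and 29 to 2673, and at 20 min 9 and 0, with ranges of 0 to 439 and 0 to 922. At 7.96 to 11.1 M reads in replicate 2, the lowest levels at 180 min rest on 1 to 3 reads, and differences among them were not detectable at this depth.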
